A study of Mus musculus with 32 samples.

Results

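Cortical layer marker genes were followed in the deposited counts to see how evenly the frontal cortex samples held upper and deep layers, and whether genotype or the amount of RNA moved these genes. The 9 genes were Cux1, Cux2, Rasgrf2 and Rorb for the upper layers and Etv1, Fezf2, Bcl11b, Tbr1 and Foxp2 for the deep layers. They were picked by symbol, and all 9 were found among the 33000 genes of the table. The RNA came from frontal cortex of 3-month-old mice that were either wild type (WT, C57BL/6) or homozygous for the GFAP-IL6 transgene. GFAP-IL6 mice express interleukin 6 under the Gfap promoter, which is active in astrocytes, and are used as a model of neuroinflammation. That promoter is not one of the neurons that carry the layer genes. Total RNA at 50, 10, 1 or 0.5 ng entered 3'Pool-seq, in which an indexed oligo-dT primer copies the poly(A) end of each mRNA and the samples are then pooled and sequenced from their 3' ends. Each genotype had 4 libraries at each input, 32 in all, and no other treatment was named. The labels do not say that replicates are separate animals, so the p-values measure only the spread between these samples.

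Neurons of the cerebral cortex are stacked in layers that are born in sequence, deep layers before upper layers. Upper-layer neurons mostly connect areas of the cortex with each other, whereas deep-layer neurons send axons to the thalamus, the striatum, the brainstem and the spinal cord. Most of the 9 genes encode transcription factors that help set these identities and remain active in the adult, and the sum of their mRNAs in a piece of tissue depends on which layers the dissection caught.

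All 9 genes are protein-coding. Positions are those of the GENCODE vM21 annotation in GRCm38, the build the reads were aligned to. Gene identifiers carry the version numbers deposited with the counts, which are earlier than those of vM21. Among the upper-layer genes, Cux1 (ENSMUSG00000029705.15, chr5:136248135-136567490, minus strand) and Cux2 (ENSMUSG00000042589.16, chr5:121856366-122050102, minus strand) encode related homeodomain proteins that shape dendrites and spines. Rorb (ENSMUSG00000036192.13, chr19:18930605-19111196, minus strand) encodes a nuclear receptor of the granular layer that receives thalamic input. Rasgrf2 (ENSMUSG00000021708.14, chr13:91880400-92131656, minus strand) encodes a guanine nucleotide exchange factor that activates Ras and Rac. Among the deep-layer genes, Etv1 (ENSMUSG00000004151.14, chr12:38779380-38870484, plus strand) encodes an ETS factor of a subset of pyramidal neurons. Fezf2 (ENSMUSG00000021743.5, chr14:12342094-12348189, minus strand) is needed for neurons that project below the cortex, and Bcl11b (ENSMUSG00000048251.13, chr12:107910403-108003602, minus strand), also known as Ctip2, acts in the same corticospinal neurons. Tbr1 (ENSMUSG00000035033.13, chr2:61802930-61814114, plus strand) specifies neurons that project to the thalamus, and Foxp2 (ENSMUSG00000029563.14, chr6:14901349-15441977, plus strand) marks many of them. Bcl11b and Foxp2 are also strongly used by projection neurons of the striatum, and Bcl11b by some cortical interneurons.

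Because reads come from the 3' end, what is counted for a gene depends on where its annotated transcripts stop. The last 30 bases of the annotated transcripts are shown for the genes on which the results below turn. Capitals mark a poly(A) signal, AATAAA, which was looked for on the transcript strand only, or in Rasgrf2 the stop codon.
Bcl11b, chr12:107910403-107910432, minus strand: tatgaaAATAAAttgggacatttaacttga
Tbr1, chr2:61814085-61814114, plus strand: caagtaaAATAAAtctggtaaaatgctaaa
Cux1, longest principal transcript, chr5:136266415-136266444, minus strand: gataattgaagtaaatatcttttatacaaa
Cux1, most distant coding transcript, chr5:136248135-136248164, minus strand: cgcaagaAATAAAgaatcattgcagccaca
Rasgrf2, longest principal transcript, chr13:91884432-91884461, minus strand: ctcaaaattgaacctcgactccctgctTGA
The sequences are from GENCODE vM21 of GRCm38. The longest principal transcript held AATAAA in its last 30 bases in 4 of the 9 genes and ATTAAA in 1 (Rorb), beside 35.5% and 9.74% of 58793 coding transcripts. The latter are all coding transcripts, not 1 principal transcript per gene, so the sets are unlike. No match in this window says nothing about how an end is made. Cux1 had 6 annotated coding ends in vM21, the outer ones 26351 bases apart. The authors counted with an earlier GENCODE release. The Cux1 length deposited with the counts was 15698 bases, beside 20024 bases for all its exons in vM21. Which of the 6 ends its counts cover is therefore not known. An antisense gene, Gm16599, overlaps the last exon of Cux1 on the other strand and had 0 counts over the 32 libraries. Cux1 overlaps 4 annotated genes, of which 1 is on the other strand. Cux2 overlaps 2, with 2 on the other strand, and Foxp2 overlaps 1, with 0 on the other strand. The part of these overlaps in the counts was not tested. Rasgrf2 stands apart, because its principal transcript stops at the TGA and has an annotated 3' untranslated region of 0 bases. The gene length deposited with the counts was 3567 bases, equal to the coding length of that transcript, whereas all exons annotated in vM21 cover 9237 bases. In vM21 the other 8 principal transcripts had 3' untranslated regions of 402 (Fezf2) to 8376 bases (Cux1). The deposited length was below that of the vM21 principal transcript in Etv1 (4936 beside 6576 bases) and Fezf2 (2304 beside 2429 bases). Which 3' bases of these 2 genes were counted is not known. The part of the missing 3' region in the low Rasgrf2 counts was not tested.

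Total counts ran from 261378 to 9840302 per library, so that 3 counts, the floor used here, were worth 0.305 to 11.5 CPM. For CPM each count was divided by its library's total and put on a common scale, with no correction for length, so levels are compared within a gene and not between genes. At 50 ng, Il6 had 0 to 1 counts in WT and 4 to 22 in GFAP-IL6 libraries, and Gfap stood at 11.3 ± 2.46 and 53.2 ± 19.6 CPM (SD, n = 4 each). At 1 ng Il6 values overlapped, with up to 13 counts in a WT library, and at 0.5 ng Il6 had 0 counts in all 8 libraries. The general excitatory neuron markers of the tissue, among them Slc17a7 and Camk2a, summed to 1148 to 2157 CPM over the 8 libraries at 50 ng.

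Upper-layer genes were measurable in every library at 50 and 10 ng, with the exception of Rasgrf2. At 50 ng, Rorb was at 66.0 ± 13.6 CPM in WT and 60.1 ± 16.2 CPM in GFAP-IL6 (SD, n = 4 each), and Cux1 at 29.9 ± 4.55 and 32.2 ± 12.2 CPM. Cux2 was at 9.81 ± 3.15 CPM in WT and 11.7 ± 7.05 CPM in GFAP-IL6. Replicate 4 of GFAP-IL6 reached 21.9 CPM of Cux2 beside 5.60 to 9.85 CPM in the others. The same library had the highest Cux1 value at 50 ng, 49.8 CPM beside 22.6 to 30.8 CPM. It was also the deepest GFAP-IL6 library at 50 ng. Rasgrf2 counts at 50 ng were 0, 0, 4 and 17 in WT replicates 1 to 4 and 3, 4, 8 and 2 in GFAP-IL6, which is at or near the floor, and the groups overlapped.

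Over the 8 libraries at 50 ng the coefficient of variation (CV, the SD as a percentage of the mean) was 13.4% to 20.4% in the deep-layer genes, beside 22.5% to 47.9% in Cux1, Cux2 and Rorb, whereas at 10 ng these ranges overlapped. At 50 ng, Tbr1 was at 107 ± 20.9 CPM in WT and 106 ± 25.9 CPM in GFAP-IL6, and Bcl11b at 96.5 ± 9.42 and 101 ± 17.5 CPM (SD, n = 4 each). Etv1 was at 68.2 ± 16.1 CPM in WT and 59.7 ± 3.83 CPM in GFAP-IL6. Fezf2 was at 32.5 ± 6.91 and 32.2 ± 5.15 CPM, and Foxp2 at 32.6 ± 3.42 and 29.2 ± 6.79 CPM. Every deep-layer gene had counts in all 16 libraries at 50 and 10 ng, the lowest being 24 counts of Foxp2, and in each the genotypes overlapped at both inputs.

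**Figure D1:**
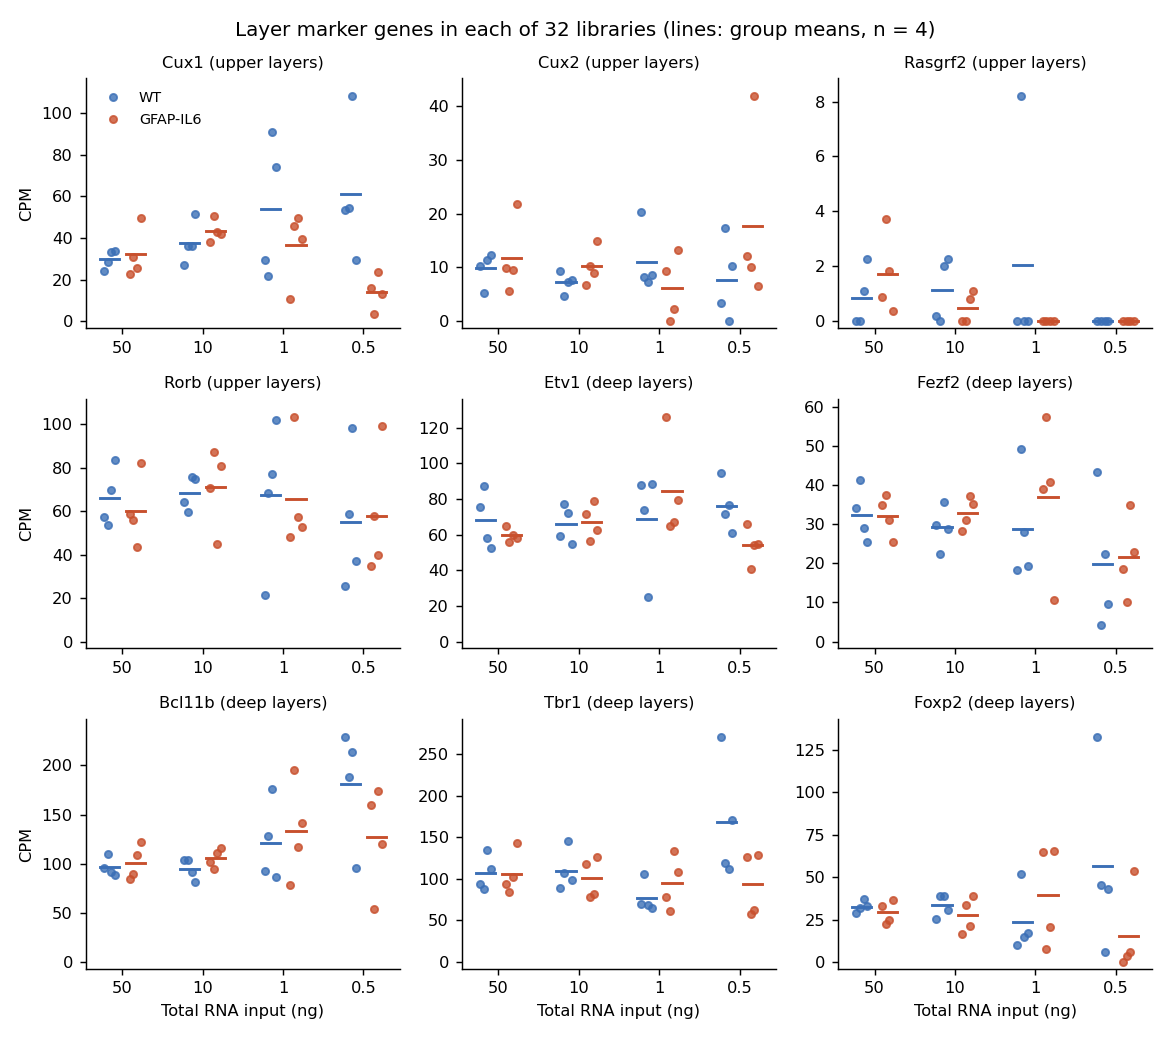
CPM of the 9 layer marker genes (y axis, a separate scale in each panel) in every library, by total RNA input in ng (x axis), in WT (blue) and GFAP-IL6 (orange), with lines at the means of 4 libraries. Points of both genotypes overlap at 50 and 10 ng, spread widely at 1 and 0.5 ng, and separate at 0.5 ng in Cux1, where WT lies between 29.7 and 108 CPM and GFAP-IL6 between 3.39 and 23.5 CPM.

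The genotype comparison asks whether interleukin 6 from astrocytes changed the layer genes. No layer marker gene was called between GFAP-IL6 and WT. At 50 ng, 0 of 8 tested genes passed edgeR's quasi-likelihood test at an adjusted p under 0.05, beside 0.280% of all genes tested. Nor did any at 10 ng (0 of 8, beside 0.332%), at 1 ng (0 of 8, beside 0.0323%) or at 0.5 ng (0 of 8, beside 0.0117%). At an unadjusted p under 0.05 the count was 0 at 50, 10 and 1 ng, beside 5.63%, 7.48% and 3.59% of all genes, and 1 (Cux1) at 0.5 ng, beside 2.87%. DESeq2 also called 0 at each input. The groups overlapped in all layer markers at 50, 10 and 1 ng, whereas 3.33%, 4.10% and 3.07% of all genes tested had no overlap. In these bulk samples, fewer cells of a type and less RNA per cell cannot be told apart. In the main fits Rasgrf2 fell below the filter on low counts at every input. Those fits tested it only after the 50 and 10 ng counts of same-numbered libraries were added. In those sums 0 of 9 genes passed, beside 0.497% of all genes, with 0 at an unadjusted p under 0.05 (beside 8.12%), 0 by DESeq2, and overlapping groups in each of the 9 (beside 4.48% of all genes without overlap).

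In the summed counts the upper-layer genes differed in sign. Cux2 stood at 9.67, 4.92, 9.27 and 9.90 CPM in WT replicates 1 to 4 and at 8.12, 7.96, 9.17 and 17.4 CPM in GFAP-IL6. Replicate 4 of GFAP-IL6 was the only one above all WT values, and the log2 fold change was 0.30 ± 0.28 (SE). Cux1 had a log2 fold change of 0.09 ± 0.18 and Rorb of -0.09 ± 0.18. Rasgrf2, with 0 to 36 summed counts a library, had a log2 fold change of -0.32 ± 0.69. The signs of Cux1, Cux2 and Rorb each depended on a library or an input: Cux2 was at -0.082 without GFAP-IL6 replicate 4, Rorb at 0.11 without GFAP-IL6 replicate 3, and Cux1 at -0.24 when all 4 inputs were summed. Rasgrf2 came to about 0 without GFAP-IL6 replicate 1.

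Foxp2 had the smallest unadjusted p of the 9 in the summed counts. Its WT values were 26.9, 35.5, 38.0 and 31.8 CPM and its GFAP-IL6 values 23.9, 28.1, 22.9 and 38.2 CPM. GFAP-IL6 replicates 1 and 3 lay below all WT values and replicate 4 above them, so the groups overlapped, with a log2 fold change of -0.25 ± 0.19 (SE) and an adjusted p of 0.721 by edgeR. Tbr1 had a log2 fold change of -0.11 ± 0.16 and Etv1 of -0.10 ± 0.16. Both changed sign, within 1 SE, when a library was left out, Tbr1 to 0.019 without WT replicate 3 and Etv1 to 0.051 without WT replicate 2. Fezf2 was at 0.05 ± 0.17 and Bcl11b at 0.07 ± 0.14. Over the 9 genes the median log2 fold change was -0.09, with 4 above 0, beside -0.01 over the 13079 genes tested. The 95% intervals of the 8 genes other than Rasgrf2 ran at the widest from 0.639-fold (the lower bound of Foxp2) to 1.83-fold (the upper bound of Cux2). The narrowest was that of Bcl11b, 0.858 to 1.29-fold.

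**Figure D2:**
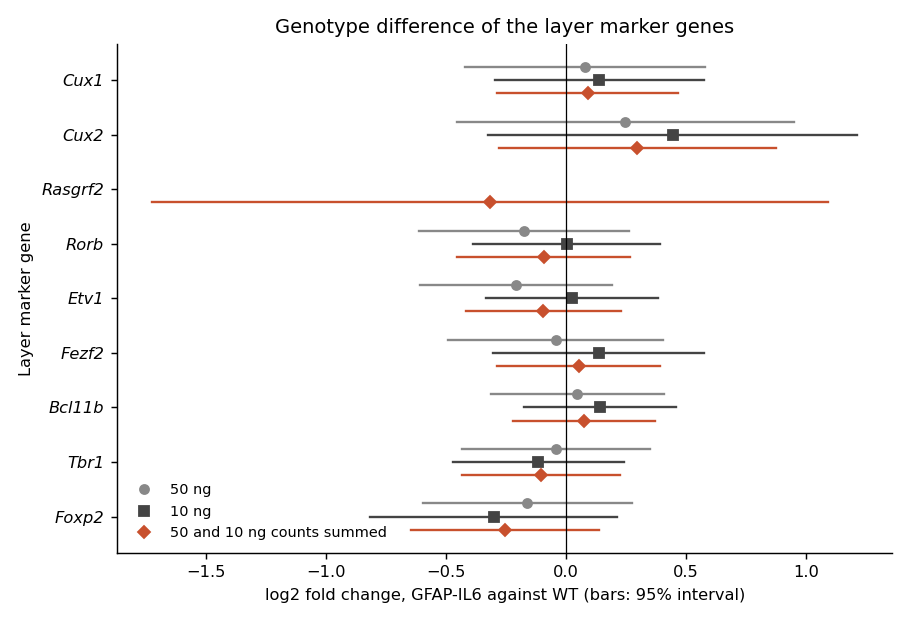
Log2 fold change of GFAP-IL6 against WT (x axis) for each layer marker gene (y axis) at 50 ng (grey circles), at 10 ng (black squares) and in the summed counts (orange diamonds), with 95% intervals from edgeR. All intervals include 0, and Rasgrf2 has a value in the sums only, with the widest interval.

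Other layer genes gave the same count, to be read beside 0.497% of all genes past the test and 8.12% at an unadjusted p under 0.05. Of 15 further upper-layer genes, 14 were tested in the summed counts and 0 passed the edgeR test (3 at an unadjusted p under 0.05), with a median log2 fold change of -0.06 and 6 above 0. Of 20 further deep-layer genes, 19 were tested and 0 passed (2 at an unadjusted p under 0.05), with a median of -0.01 and 9 above 0. The lowest upper-layer values were those of Rspo1, which encodes a secreted enhancer of Wnt signalling (-0.67 ± 0.23 SE, edgeR adjusted p = 0.327), and Mdga1, a cell adhesion gene (-0.65 ± 0.64). The highest were Otof (0.37 ± 0.43) and Pou3f2, a POU transcription factor (0.32 ± 0.18). Among the deep-layer genes Ntsr1, the neurotensin receptor of corticothalamic neurons, was at -0.96 ± 0.63 and Cplx3, a complexin of the subplate, at -0.47 ± 0.18 (edgeR adjusted p = 0.484). Tshz2 was at 0.38 ± 0.21 and Sox5, a factor of early-born deep-layer neurons, at 0.20 ± 0.17.

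Markers of other cells did move with genotype. In the summed counts 2 of 6 microglia markers passed the test (5 at an unadjusted p under 0.05), beside 0.497% and 8.12% of all genes, Ctss (log2 fold change 1.63 ± 0.16 SE, edgeR adjusted p = 2.02e-07) and Aif1 (0.89 ± 0.17, adjusted p = 0.00502). At 50 ng the 6 markers summed to 355 ± 13.6 CPM in WT and to 762 ± 229.9 CPM in GFAP-IL6 (SD, n = 4 each), with ranges of 345 to 373 and 456 to 996 CPM. Of 4 endothelial markers tested, 1 passed, Flt1 (1.11 ± 0.25, edgeR adjusted p = 0.0246), and 2 had an unadjusted p under 0.05. Of 7 striatal markers tested, 1 passed, Ppp1r1b, which encodes a dopamine-regulated phosphatase inhibitor and was lower in GFAP-IL6 (-0.70 ± 0.16, edgeR adjusted p = 0.0314). Of these 7, 4 had an unadjusted p under 0.05 and 1 lay above 0, with a median log2 fold change of -0.40. Ppp1r1b at 50 ng was at 114, 168, 127 and 146 CPM in WT and 101, 106, 83.7 and 58.2 CPM in GFAP-IL6. Every GFAP-IL6 value lay below every WT value, at an input where 3.33% of all genes tested had no overlap in either direction. The summed striatal markers overlapped, at 299.7 to 505 CPM in WT and 258 to 391 CPM in GFAP-IL6, and Drd2 was at 0 in all of these libraries. The library lowest in striatal markers at 50 ng, GFAP-IL6 replicate 4, held the highest Bcl11b (122 CPM) and the second-highest Foxp2 (36.7 CPM), whereas the library highest in them, WT replicate 2, held the second-highest Bcl11b (109.8 CPM). Whether the Ppp1r1b counts came from striatal or cortical cells was not tested. The part of microglia, endothelium or striatal tissue in the layer gene values was not tested either.

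Of the remaining lists, 0 genes passed in the summed counts among 6 astrocyte, 6 excitatory neuron, 6 inhibitory neuron, 6 oligodendrocyte, 2 oligodendrocyte progenitor, 3 choroid plexus, 2 hippocampal, 2 olfactory bulb and 3 thalamic genes tested by edgeR, with 2, 2, 2, 0, 0, 1, 0, 0 and 0 at an unadjusted p under 0.05, beside the same 0.497% and 8.12% of all genes. Choroid plexus markers were uneven in WT, with summed values of 60.5 to 3417 CPM at 50 ng against 66.1 to 349 CPM in GFAP-IL6. The 6 excitatory neuron markers, which the layer genes share their cells with, had a median log2 fold change of -0.0029. They ran from -0.44 to 0.57, with 3 above 0. Their sums at 50 ng overlapped at 1270 ± 130 CPM in WT and 1481 ± 454 CPM in GFAP-IL6 (SD, n = 4 each).

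**Figure D3:**
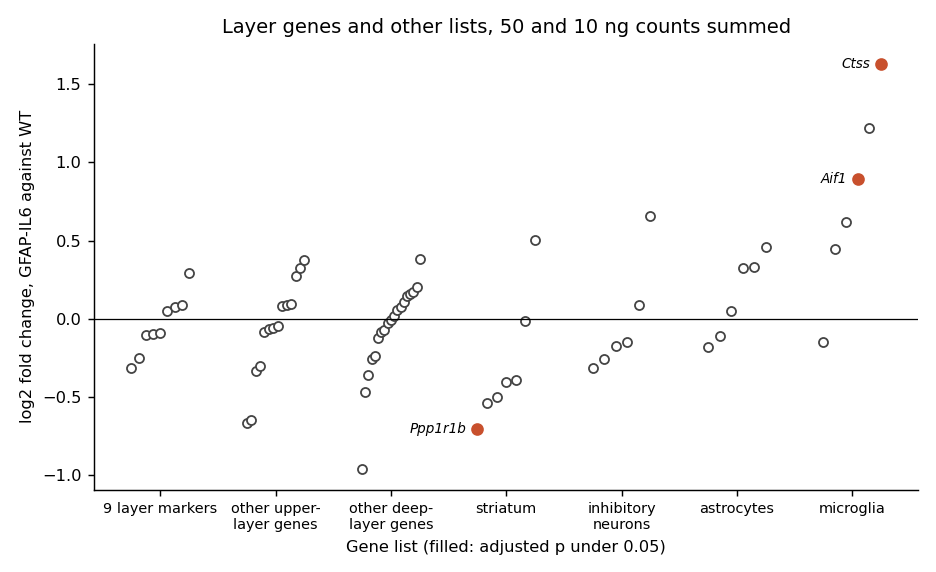
Log2 fold change of GFAP-IL6 against WT in the 50 and 10 ng sums (y axis) for every tested gene of 7 lists (x axis), with genes at an edgeR adjusted p under 0.05 filled and named. None of the layer genes is filled, whereas Ctss (1.63) and Aif1 (0.89) in the microglia list and Ppp1r1b (-0.70) in the striatal list are.

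The balance between layers was described for each library as the log2 of the summed upper-layer CPM over the summed deep-layer CPM. The genes within a layer group did not all vary together. At 50 ng, Pearson's r of log2(CPM + 1) over 8 libraries ran from -0.86 (Fezf2 with Tbr1) to 0.72 (Etv1 with Fezf2) between deep genes. Between Cux1 or Rorb and a deep gene it ran from -0.72 (Rorb with Fezf2) to 0.74 (Cux1 with Tbr1). At 10 ng these ranges were -0.20 to 0.46 and -0.68 to 0.42. How far the ratio follows layer content was not tested. At 50 ng the log2 ratio was -1.84, -2.04, -1.60 and -1.24 in WT replicates 1 to 4 and -1.76, -1.59, -2.03 and -1.32 in GFAP-IL6. The genotypes covered nearly the same range, and in both of them replicate 4 had the highest value. In every group of genotype and input, replicate 4 was the deepest library and replicate 2 the shallowest. The part of depth in the high values of replicate 4 was not tested. Means were -1.68 ± 0.34 in WT and -1.67 ± 0.30 in GFAP-IL6 (SD, n = 4 each), a ratio of upper to deep CPM of 0.312 and 0.313. At 10 ng the means were -1.54 ± 0.30 and -1.43 ± 0.32, with GFAP-IL6 replicate 2 now highest at -0.99.

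At lower input the balance scattered. At 1 ng it was -1.97, -1.94, -0.83 and -0.58 in WT and -2.50, -1.37, -1.79 and -1.95 in GFAP-IL6. The WT range held 3 of the 4 GFAP-IL6 values, and GFAP-IL6 replicate 1 lay below it. At 0.5 ng the values were -3.22, -1.72, -1.06 and -2.30 in WT and -2.56, -1.22, -1.66 and -1.68 in GFAP-IL6. The mean differences of GFAP-IL6 from WT were 0.0046, 0.11, -0.57 and 0.30 from 50 to 0.5 ng. The SDs between replicates were 0.32, 0.31, 0.61 and 0.76. They describe single libraries and are not errors of these differences, and no test was made of this sum of chosen genes. With the balance taken as the difference of the mean log2(CPM + 1) of upper and deep genes, the differences were 0.22, 0.082, -0.94 and 0.66. When a replicate, Bcl11b or Cux1 was left out, the difference lay between -0.11 and 0.15 at 50 ng, -0.040 and 0.25 at 10 ng, -0.78 and -0.32 at 1 ng, and -0.083 (without WT replicate 1) and 1.06 (without Cux1) at 0.5 ng.

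**Figure D4:**
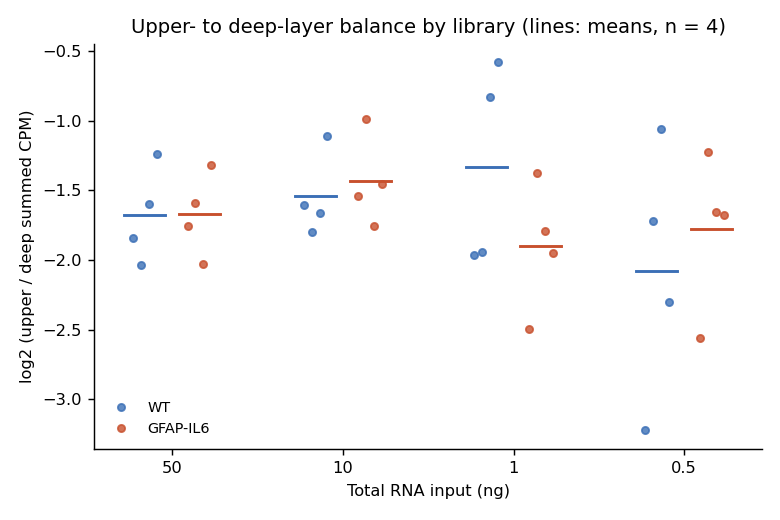
Log2 ratio of summed upper-layer to summed deep-layer CPM in each library (y axis) by total RNA input in ng (x axis), WT in blue and GFAP-IL6 in orange, with lines at the means of 4 libraries. The values lie between -2.04 and -1.24 at 50 ng and between -3.22 and -1.06 at 0.5 ng.

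The input comparison asks what happens to the same genes when less RNA enters the reaction. Between 10 and 50 ng no layer marker gene passed (0 of 8 tested, beside 0% of all 12164 genes by edgeR, 0 at an unadjusted p under 0.05, beside 0.534%, and 0 by DESeq2), with log2 fold changes from -0.31 (Cux2) to 0.39 (Cux1). At 1 ng against 50 ng again 0 of 8 passed, beside 0.822% of all genes, with 0 at an unadjusted p under 0.05 (beside 8.25%) and 0 by DESeq2. At 0.5 ng against 50 ng 1 of 8 passed, Bcl11b, beside 6.72% of all genes and 1.90% that were higher. These comparisons share the 50 ng libraries. They also come from the fit of all 32 libraries, which uses 1 spread for all inputs. That spread, as edgeR's CV between replicates, was 0.526, beside 0.214 and 0.238 in the fits at 50 and 10 ng alone. The test of 10 against 50 ng could therefore miss differences that these inputs alone would show. Under 6 other settings, an edgeR fit of the 2 inputs compared among them, 0 layer markers were called at 10 ng.

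Bcl11b was higher at 0.5 ng than at 50 ng. In WT replicates 1 to 4 it went from 95.8, 109.8, 92.1 and 88.2 CPM at 50 ng to 229, 189, 214 and 95.4 CPM at 0.5 ng. In GFAP-IL6 it went from 84.3, 89.6, 109.3 and 122 CPM to 160.2, 54.2, 174 and 120.5 CPM. The value was higher in 6 of 8 same-numbered libraries, in all 4 of WT and in replicates 1 and 3 of GFAP-IL6, so the inputs overlapped. Over both genotypes the mean at the 4 inputs from 50 to 0.5 ng was 98.9 ± 13.2, 100.5 ± 11.04, 127 ± 42.3 and 154 ± 60.1 CPM (SD, n = 8 each). The log2 fold change at 0.5 ng was 0.70 ± 0.20 (SE, edgeR adjusted p = 0.0242), or 1.62-fold with a 95% interval of 1.23 to 2.14, beside a median of -0.09 over all genes. The difference of the genotype effect from that at 50 ng was -0.55 ± 0.39 (edgeR adjusted p = 0.712).

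The Bcl11b call rested on single libraries and on how the spread was estimated. It was lost when WT replicate 1, WT replicate 3, GFAP-IL6 replicate 1 or GFAP-IL6 replicate 3 was left out (log2 fold changes 0.60, 0.58, 0.57 and 0.63, edgeR adjusted p = 0.102, 0.103, 0.106 and 0.0837). It was also lost in 2 fits added after the data were seen, an edgeR fit of the 16 libraries at these inputs (0.69, adjusted p = 0.0977) and limma voom with a weight for each input (0.65, adjusted p = 0.0697).

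The other tested layer markers did not pass. At 0.5 ng Tbr1 had a log2 fold change of 0.33 ± 0.21 (SE), Etv1 0.08 ± 0.22, Foxp2 0.11 ± 0.51 and Fezf2 -0.52 ± 0.35. Cux1 was at 0.02 ± 0.33, Cux2 at 0.14 ± 0.58 and Rorb at -0.12 ± 0.28. Fezf2 was lower in 6 of 8 same-numbered libraries, from 32.3 ± 5.64 to 20.7 ± 13.2 CPM, a difference within the spread at 0.5 ng. Among the 18 further deep-layer genes tested, 1 passed, Pcp4, a calmodulin-binding peptide of corticofugal neurons, which is named here after its values were seen. It was higher at 1 ng (0.52 ± 0.11, edgeR adjusted p = 0.00846) and at 0.5 ng (0.54 ± 0.11, adjusted p = 0.00203), where 0.822% and 6.72% of all genes passed, and nothing is read from 1 gene of 18. Of 13 further upper-layer genes tested, 0 passed at 0.5 ng by edgeR, with 2 at an unadjusted p under 0.05.

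Cux1 at 0.5 ng was the only layer marker and input at which the genotypes did not overlap. WT replicates 1 to 4 had 53.2, 54.2, 108 and 29.7 CPM (64, 25, 140 and 78 counts). GFAP-IL6 replicates had 16.02, 3.39, 23.5 and 12.9 CPM (25, 1, 45 and 35 counts). Every GFAP-IL6 value lay below every WT value, as it did for 1.34% of all genes tested at this input. The means were 61.3 ± 33.2 and 13.9 ± 8.33 CPM (SD, n = 4 each). The log2 fold change was -2.07 ± 0.78 (SE), with a 95% interval of -3.70 to -0.44 and an edgeR adjusted p of 0.9999.

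Values of Cux1 at the other inputs were closer. At 50 ng WT had 24.1, 28.6, 33.4 and 33.7 CPM and GFAP-IL6 22.6, 30.8, 25.6 and 49.8 CPM. At 10 ng the values were 26.9, 36.3, 36.1 and 51.7 CPM against 38.1, 50.7, 42.8 and 41.8 CPM. At 1 ng they were 29.5, 21.8, 90.8 and 74.0 CPM against 10.8, 45.9, 49.6 and 39.3 CPM. The groups overlapped at each of these inputs. From 50 to 0.5 ng the WT means were 29.9, 37.8, 54.0 and 61.3 CPM and the GFAP-IL6 means 32.2, 43.4, 36.4 and 13.9 CPM. The difference of the genotype effect between 0.5 and 50 ng was -2.12 ± 0.66 on the log2 scale (edgeR adjusted p = 0.148). In this test 0 of 8 layer markers passed, beside 0.197% of all genes, and 1 (Cux1) had an unadjusted p under 0.05, beside 10.7%. DESeq2 did call this difference (-2.14 ± 0.62, adjusted p = 0.0363), and a single edgeR fit of all 32 libraries called the genotype effect at 0.5 ng itself (-2.01 ± 0.48, adjusted p = 0.0132), a fit in which the spread at 0.5 ng is pooled with that of higher inputs.

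Foxp2 showed the largest swings at low input. At 0.5 ng WT replicates 1 to 4 had 159, 21, 8 and 113 counts (132.2, 45.5, 6.17 and 43.0 CPM). GFAP-IL6 replicates had 0, 1, 11 and 145 counts (0, 3.39, 5.75 and 53.3 CPM). GFAP-IL6 replicate 1, with 0 counts here, had 114 counts at 50 ng and 90 counts (64.9 CPM) at 1 ng. The count of 0 allows up to 1.92 CPM in that library by counting alone, below its 33.0 CPM at 50 ng. The log2 fold change of GFAP-IL6 against WT was -1.81 ± 1.14 at 0.5 ng and 0.92 ± 0.66 at 1 ng (SE), with edgeR adjusted p of 0.9999 and 0.997. At 0.5 ng it was -4.28 without GFAP-IL6 replicate 4 and -0.98 without WT replicate 1, and at 1 ng it was 1.59 without WT replicate 2 and 0.55 without GFAP-IL6 replicate 4.

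The layer markers spread more at 1 and 0.5 ng than at 50 and 10 ng. Rasgrf2 aside, the CV of CPM over the 8 libraries of an input had a median over genes of 19.4%, 19.6%, 45.8% and 57.6% from 50 down to 0.5 ng. Counting error alone would have given medians of 9.35%, 8.16%, 15.2% and 15.8%. From 10 to 1 ng the CV went up in 8 of 8 genes, and from 1 to 0.5 ng in 7 of 8, Etv1 being the exception. For 6842 genes whose mean at 50 ng lay within the range of these 8, the median CV was 21.8%, 23.1%, 52.6% and 72.7%. The medians of the layer markers lay below these at each input. The 6842 genes were not matched to the markers in level within that range, and the difference was not tested.

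The genes differed in how far they spread. At 0.5 ng the CV was lowest in Etv1 (25.3%) and Bcl11b (38.9%), and highest in Foxp2 (123%), Cux2 (102%) and Cux1 (89.8%). The ratio of the observed to the counting CV at 0.5 ng ran from 1.92 (Etv1) to 6.95 (Foxp2) with a median of 4.05, against a median of 2.44 at 50 ng. Foxp2 and Fezf2 had CVs of 17.1% and 17.5% at 50 ng but 123% and 63.8% at 0.5 ng. No test was made of the differences between genes.

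**Figure D5:**
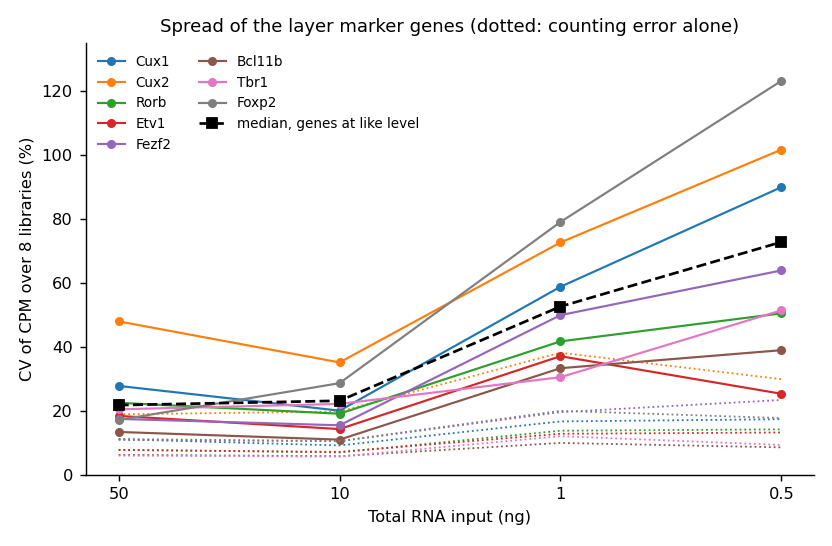
Coefficient of variation of CPM over 8 libraries in percent (y axis) at each total RNA input in ng (x axis). Coloured lines are the 8 layer marker genes other than Rasgrf2, and dotted lines in the same colours the CV from counting error alone. The black dashed line is the median of 6842 genes within the range of levels of these 8 at 50 ng, not matched in level within it. The lines stay low from 50 to 10 ng and rise at 1 ng, and at 0.5 ng Foxp2 (123%) and Cux2 (102%) lie highest and Etv1 (25.3%) lowest.

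Most layer markers were still detected at low input. Of 72 combinations of gene and library, 70, 69, 64 and 62 had at least 1 count from 50 down to 0.5 ng. Without Rasgrf2 the counts were 64, 64, 63 and 62 of 64. The 3 misses were Cux2 in GFAP-IL6 replicate 2 at 1 ng and in WT replicate 3 at 0.5 ng, and Foxp2 in GFAP-IL6 replicate 1 at 0.5 ng. Had every library been as shallow as the shallowest, 63.3, 63.0, 61.9 and 60.5 combinations would be expected for the same 8 genes. Rasgrf2 had counts in 6, 5, 1 and 0 of 8 libraries from 50 to 0.5 ng, and its 1 library at 1 ng, WT replicate 2, held 3 counts. At 0.5 ng its 0 of 8 allows up to 1.10 to 10.2 CPM a library.

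Between 50 and 10 ng the values of some genes went together over the samples and those of others did not. Over the 8 same-numbered libraries of 50 and 10 ng, Pearson's r of log2(CPM + 1) was 0.75 for Bcl11b, 0.71 for Rorb, 0.70 for Tbr1 and 0.45 for Etv1. It was 0.38 for Cux1, 0.26 for Foxp2 and -0.62 for Fezf2. Each r covers 8 points, 4 of each genotype, whose libraries share a number and possibly an RNA sample. With so few points these values describe the libraries and were not tested.

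The genes most like each layer marker were sought over 8 points, each the mean log2(CPM + 1) of the 50 and 10 ng libraries of a genotype and number, among 8735 genes. Cux1 was closest to Zfp354c (Pearson's r 0.98) and Fam222b (0.95), and Rorb to Mfsd4 (0.98) and Plcb1 (0.96). Tbr1 was closest to Pdk1 (0.98) and Tmtc1 (0.96), Foxp2 to Nyap2 (0.93) and Rgs8 (0.92), and Bcl11b to Hdac9 (0.95) and Rc3h1 (0.92). Etv1 was closest to Sypl (0.93) and Ppm1m (0.89), and Fezf2 to Rftn2 and Rnd3 (0.95 each). The r of Rorb and Plcb1 was 0.87 at 50 ng and 0.94 at 10 ng, whereas that of Fezf2 and Rftn2 was -0.18 and 0.17. The pairs were picked on means of these same libraries, so values at 1 input are not a separate check. Each pair is among the 2 highest of 8735 values over only 8 points, and the points share library depth, so these are descriptions only. Cux2 and Rasgrf2 lay below the mean of 10 CPM set for this step.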

How the data were processed

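The deposited values are raw counts per gene and library, which the authors made from single-end 3'Pool-seq reads by trimming poly(A), aligning to mm10 with STAR 2.4 and counting unique reads with featureCounts. The labels also list a human build, and whether strand was used in counting is not given in the sources used here. No length correction was made, since reads come from 3' ends, and PCR duplicates were not marked by molecular identifiers, so floors cover counting error only.

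Groups came from genotype and input in the titles. Each of the 32 count columns was matched to a library, and 0 were left over. Genotypes were compared at each input, and in sums of the 50 and 10 ng counts, with edgeR 4.0.16 in R 4.3.3 (TMM, filterByExpr, quasi-likelihood test, Benjamini-Hochberg adjustment over all genes tested, threshold 0.05). Inputs and their interaction with genotype were tested in a fit of all 32 libraries. The scripts were tested on simulated counts. Alternatives were DESeq2 1.42.0, its size factors, no filter (genes with at least 1 count), the replicate block, a fit of all libraries, all inputs summed, each replicate left out and, added after the data were seen, an edgeR fit of the 2 inputs compared and limma 3.58.1 voom with input weights. The layer balance was also taken as a difference of mean logs and without Bcl11b or Cux1. A change of sign counted as such only where a value was called or had moved by more than 1 SE.

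The 9 genes and all lists were chosen with earlier results of these data known. Named besides the 9 were list genes called for genotype, the 2 highest and 2 lowest genes of each further layer list in the sums, and the 2 genes most like each marker. Sequences and coordinates are from GENCODE vM21 of GRCm38. Other values were computed with Python 3.11.15, pandas 2.3.3 and scipy 1.17.1.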

Additional observations from a re-analysis of the deposited data

Results flagged for a closer look

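Of 77 groups of 4 libraries, a gene or the layer balance in each, 6 held a library whose distance from the nearest other one was large for the range of the group. Chance gives about 1 in 20 such groups. All 6 were at 1 or 0.5 ng. Cux2 was at 20.3 CPM in WT replicate 1 at 1 ng, beside 7.23 to 8.58 CPM in the others, and at 41.8 CPM in GFAP-IL6 replicate 3 at 0.5 ng, beside 6.61 to 12.2 CPM. Rasgrf2 was at 8.19 CPM in WT replicate 2 at 1 ng, which is 3 counts, beside 0 in the others. Rorb was at 103 CPM in GFAP-IL6 replicate 2 at 1 ng (27 counts), beside 48.3 to 57.4 CPM. Tbr1 was at 106 CPM in WT replicate 2 at 1 ng (39 counts), beside 65.0 to 70.04 CPM. Foxp2 was at 53.3 CPM in GFAP-IL6 replicate 4 at 0.5 ng (145 counts), beside 0 to 5.75 CPM.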

How the results depend on the processing

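Of 1203 estimates of a layer marker under an alternative, 1187 changed neither their call nor, by more than 1 SE, their sign. Of any size, the sign changed in 91 of 711 estimates with a replicate left out and in 19 of the other 492. No gene passed in a genotype comparison at 50, 10 or 1 ng or in the sums under any alternative run, and 1 passed at 0.5 ng, Cux1, in the single fit of all 32 libraries. In the sums all 4 inputs together turned Cux1 to -0.24. Leaving out 1 replicate moved Cux1 at 50 ng between -0.27 and 0.22 and Cux2 between -0.26 and 0.40, and in the sums Cux2 between -0.082 and 0.44 and Rorb between -0.23 and 0.11. At 0.5 against 50 ng the genes called were 2 with no filter (Bcl11b and Rasgrf2), 0 in the fit of the 2 inputs compared and 0 by voom, and between 0 and 1 with a replicate left out. Rasgrf2 had 0 counts in all 8 libraries at 0.5 ng. By voom Cux2 turned to -0.56 and Foxp2 to -1.11, and with a replicate left out Foxp2 lay between -1.11 and 0.33, the low value being without GFAP-IL6 replicate 4. For the difference of the genotype effect between 0.5 and 50 ng DESeq2 called 1 gene, Cux1. The cause of these changes was not tested.

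With the replicate block, Bcl11b at 0.5 ng kept its call (0.68, edgeR adjusted p = 0.0227), 0 genes passed in every genotype comparison, and no other call of a layer marker changed. Within a genotype, the deviations of libraries with the same number correlated between 50 and 10 ng at 0.042 to 0.696, 7 of 8 best with their own number. Across genotypes the same number correlated at 0.068 to 0.319 at 50 ng and 0.084 to 0.256 at 10 ng, 4 of 4 best with their own at each. This is a hint from the data, not the design; not every value was over 0.1, so the fits without the block stand, and the numbers served to add and line up libraries. Rasgrf2 was at or near the floor at all inputs, and in the shallowest library 3 counts are worth 11.5 CPM. The 9 genes stand for layers only as far as the textbook roles hold in this tissue, and counts from 3' ends miss transcripts that end outside the annotated gene.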
